A study of Schizosaccharomyces pombe with 20 samples.

Results

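The proteasome subunit genes of the fission yeast Schizosaccharomyces pombe were examined in leo1Δ and wild-type cells before and during quiescence. Members were taken by name, as genes listed as rpn, rpt, pre or pup followed only by digits, or as mts2, mts3, mts4 or pad1. This rule uses no measured value, and it found 32 of the 5007 genes tested. The core particle had 11 members (pre and pup genes) and the regulatory particle had 21 members (the rest). The names mts2, mts3 and pad1 were not listed, and the genes they stand for appeared as rpt2, rpn12 and rpn11. For 32 of 32 members the annotated product named the proteasome, with 13 members on chromosome I, 12 on chromosome II and 7 on chromosome III.

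RNA depleted of rRNA was sequenced from leo1Δ cells (strain PB2423) and wild-type cells (strain PB1623), each genotype being represented by 1 strain. The study lists both as mat1-M smt-0 at the mating-type locus. Both strains were grown in PMG, a minimal glutamate medium, and then held in PMG-N, which lacks nitrogen and drives the cells into G0. Cells were taken at 0 h (T0, growing), at 8 h (T8), 24 h (T24) and 48 h (T48), and at 2 weeks (T2w), with 2 libraries for each of the 10 groups. The study refers to the 2 libraries of a group as independent biological duplicates. It also reported lower survival of leo1Δ cells than of wild-type cells at 2 weeks. The part of cell death in the values at T2w was not tested. Leo1 belongs to the Paf1 complex, which accompanies RNA polymerase II, and the comparison asks which transcripts depend on it as cells enter and stay in quiescence. The deposited table held, for each gene and time, 1 log2 fold change of leo1Δ over wild type with a p-value and a false discovery rate (FDR) from edgeR. Single libraries were not analysed here, their depth is unknown, and the spread of duplicates enters only through an approximate standard error (SE) derived from that test. Since bulk RNA was measured and scaled to the library, a change in every cell, a change in the share of cells in 1 state and a change in RNA per cell cannot be told apart. A gene was called higher or lower in leo1Δ cells where the FDR was below 0.05. The deleted gene was called lower at all 5 times, with log2 fold changes between −2.38 and −1.76. Its level in leo1Δ cells was 0.192-fold that of wild type at T0 and 0.295-fold at T8, the lowest and highest of these times. Reads were thus still counted for leo1 in the deletion strain, and it was not tested where they came from.

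The proteasome degrades proteins that carry ubiquitin chains, and it is needed for cell cycle progression and for protein turnover in starved cells. Its core particle is a barrel of stacked rings, with alpha subunits forming the outer gates and beta subunits lining the chamber where proteins are cut. The regulatory particle caps the barrel: its base holds a ring of ATPases that unfold substrates, scaffold proteins and ubiquitin receptors, and its lid holds the enzyme that removes ubiquitin chains. In budding yeast, subunit genes are known to share a transcription factor and to be expressed together.

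Most proteasome genes lay above 0 in the comparison of leo1Δ with wild type, by modest amounts, and few passed the test one by one. The median log2 fold change over the 32 members was 0.18 (T0), 0.30 (T8), 0.40 (T24), 0.32 (T48) and 0.11 (T2w). The median over all 5007 genes at these times was −0.01, −0.01, −0.03, −0.07 and 0.05. A median of 0.40 is a 1.32-fold higher level in leo1Δ cells than in wild-type cells. The number of members above 0 was 23, 29, 28, 23 and 25 of 32 in the same order, against 49.3%, 49.2%, 47.1%, 45.9% and 55.0% of all genes. At all 5 times together, 15 members lay above 0 (46.9%), as did 582 of all genes (11.6%). These shares describe the list and were not tested, since genes measured in the same libraries are not replicates.

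**Figure D1:**
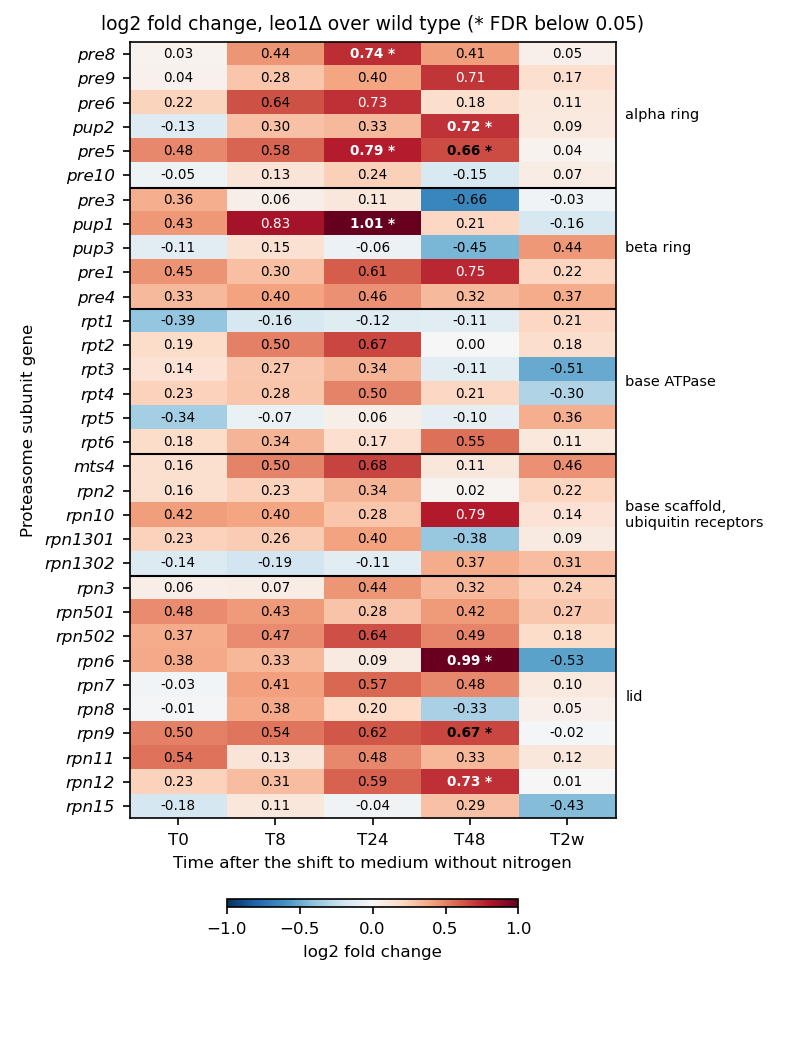
log2 fold change of leo1Δ over wild type for each of the 32 proteasome subunit genes (vertical axis, grouped by role) at the 5 times (horizontal axis), with the value printed in each cell and an asterisk where the FDR was below 0.05. Red cells (higher in leo1Δ) prevail at T8 and T24, the 8 calls lie at T24 and T48, and pup1 at T24 (1.01) and rpn6 at T48 (0.99) have the highest values.

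Over all members and times, 8 values from 7 genes were called, each of them higher in leo1Δ cells, and 25 members were called at no time. At T0, edgeR called 0 members, where 0.16% of all genes were called higher and 0.32% lower. An unadjusted p below 0.05 was reached by 3 members, each above 0. Over all 5007 genes, 170 reached it above 0 and 259 below 0. At T8, edgeR again called 0 members, with 0.0999% of all genes called higher and 1.34% lower. An unadjusted p below 0.05 was reached by 5 members, each above 0. Over all genes, 134 reached it above 0 and 343 below 0. At T24, 3 members were called higher (9.38%), against 1.28% of all genes, and none lower, against 3.77%. At T48, 5 members were called higher (15.6%), against 5.57% of all genes, and none lower, against 8.21%. At T2w, 0 members were called, where 1.2% of all genes were called higher and 2.3% lower. The 1 member with an unadjusted p below 0.05 (rpn15) lay below 0. Over all genes, 379 reached that p above 0 and 407 below 0. Counts of so few genes are a description, and only pre5 was called at more than 1 time.

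At T24, 12 members had an unadjusted p below 0.05 and a 95% interval above 0, of which 3 passed the adjustment over all genes. Over all genes, 424 reached that p above 0 and 600 reached it below 0. At T48, 10 members reached it above 0 and 1 below 0 (pre3), where the numbers over all genes were 669 and 887. The SE of a member's log2 fold change ran between 0.21 and 0.69 with a median of 0.26. For 2 libraries against 2 this is also about 1 SD between libraries in the edgeR model, and many member values were no larger.

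The core particle genes, taken as a group, had medians of 0.22, 0.30, 0.46, 0.32 and 0.09 over the 5 times. The regulatory particle genes had medians of 0.18, 0.31, 0.34, 0.32 and 0.12. The medians of the particles differed most at T24, by 0.12, which is less than the SE of a single gene, and their ranges overlapped at every time. At T24, 3 of 11 core genes (27.3%) and 0 of 21 regulatory genes were called higher, against 1.28% of all genes. This split depends on the threshold, since the regulatory genes rpt2 and rpn9 had FDR values of 0.0722 and 0.0870 there. At T48, 2 of 11 core genes (18.2%) and 3 of 21 regulatory genes (14.3%) were called higher, against 5.57% of all genes. At T24 the unadjusted p was below 0.05 for 5 of 11 core genes and 7 of 21 regulatory genes, each above 0. Over all 5007 genes, 424 reached that p above 0 and 600 below 0.

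**Figure D2:**
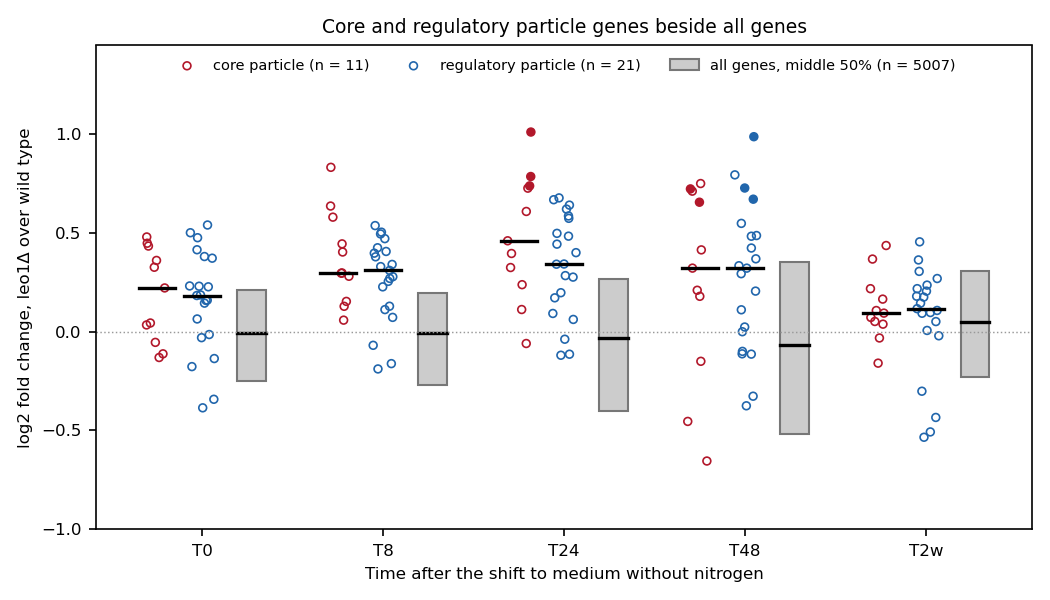
log2 fold change of leo1Δ over wild type (vertical axis) by time (horizontal axis) for core particle genes (red, n = 11) and regulatory particle genes (blue, n = 21), with filled points for genes called at FDR below 0.05, black lines for medians and a grey box for the middle 50% of all 5007 genes. Both particles have medians above that of all genes at each time, and at T48 their members spread most, between −0.66 and 0.99.

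The alpha ring subunits form the gate of the core particle and the surface on which the regulatory particle docks, and at T24 and T48 their median lay above that of the beta ring. The 6 members had medians of 0.04, 0.37, 0.56, 0.54 and 0.08 over the 5 times. The alpha 6 gene pre5 was higher in leo1Δ at T24 (0.79 ± 0.24 SE, 1.72-fold, FDR 0.0297) and at T48 (0.66 ± 0.24, FDR 0.0454). Its values at T0 and T8 were 0.48 and 0.58, and at T2w 0.04, so its values were similar over the first 48 h and near 0 at 2 weeks. The alpha 2 gene pre8 was higher at T24 (0.74 ± 0.23, 1.67-fold, FDR 0.0350), beside 0.03 at T0 and 0.41 at T48. The alpha 5 gene pup2 was higher at T48 (0.72 ± 0.26, 1.65-fold, FDR 0.0447), beside −0.13 at T0 and 0.33 at T24. Of these genes, pre5 and pup2 lie with 92.4% and 100% of their exon bases opposite exons of a gene on the other strand, and pre8 with 63.8%. The sources used here do not say whether strand was used in counting, so reads of such a gene and its partner could not be told apart. The alpha 4 gene pre6 stood just outside the threshold at T24 (0.73 ± 0.24, FDR 0.0513), and the alpha 3 gene pre9 had its largest value at T48 (0.71 ± 0.34, FDR 0.133). The alpha 7 gene pre10 stayed between −0.15 and 0.24 at all 5 times.

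The beta ring holds the cutting sites. Its 5 members, with medians of 0.36, 0.30, 0.46, 0.21 and 0.22 over the 5 times, spanned the widest range at T48. The beta 2 gene pup1, which encodes the subunit that cuts after basic residues, had the highest value of all members at T24, 1.01 ± 0.28 (2.02-fold, FDR 0.0121). Its values at T0, T8, T48 and T2w were 0.43, 0.83, 0.21 and −0.16, so that a 95% interval above 0 was present at T8 and T24 alone among the times. The beta 4 gene pre1, a non-catalytic subunit, was above 0 at each time and stood just outside the threshold at T48 (0.75 ± 0.28, FDR 0.0508). The beta 7 gene pre4 lay between 0.32 and 0.46 at all 5 times without a call, its lowest FDR being 0.302 at T24. In the opposite direction, the beta 1 gene pre3, whose product cuts after acidic residues, had −0.66 ± 0.31 at T48 (0.635-fold, unadjusted p 0.0368, FDR 0.134) beside 0.36 at T0. The beta 3 gene pup3 had −0.45 ± 0.35 at T48 and 0.44 ± 0.35 at T2w, neither of which was called. The highest and lowest values of this ring at T48, those of pre1 and pre3, differed by 1.41 on the log2 scale. The deposited exon length of pre3 is 1554 bases against 960 bases in the reference annotation used here. What the added length holds was not tested. Exons on the opposite strand cover 80.9% of the exon bases of pup3.

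The base ATPases, which form the ring that pulls proteins into the core, had the lowest medians of the regulatory particle at T24 and T48. Their 6 members had medians of 0.16, 0.27, 0.26, −0.05 and 0.14 over the 5 times, and none was called at any time. The highest value was that of rpt2 at T24, 0.67 ± 0.24 (FDR 0.0722), and at T48 the value of rpt2 was −8.6e-05. At T48 only rpt6 reached an unadjusted p below 0.05 (0.55 ± 0.24, FDR 0.107). The genes rpt1 and rpt5 were below 0 at T0 (−0.39 and −0.34), between −0.16 and 0.06 from T8 to T48 and above 0 at T2w (0.21 and 0.36). The genes rpt3 and rpt4 were above 0 at T0, T8 and T24 and at −0.51 and −0.30 at T2w, with FDR values of 0.411 and 0.652 there. The ATPases of this single ring thus had values on both sides of 0 at each of the 5 times, none of them called. Exons on the opposite strand cover 68.5% (rpt6) to 100% (rpt5) of the exon bases of rpt3, rpt4, rpt5 and rpt6. They cover 42.7% of those of rpt2 and 0% of those of rpt1. With strand use in counting unknown, the part of partner genes in these values was not tested.

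The scaffold and ubiquitin receptor genes of the base, 5 in number, had medians of 0.16, 0.26, 0.34, 0.11 and 0.22 over the 5 times and no call. The scaffold gene mts4 (Rpn1) was above 0 at each time, with its highest value at T24 (0.68 ± 0.29, FDR 0.159), and the scaffold gene rpn2 stayed between 0.02 and 0.34. The receptor gene rpn10 reached 0.79 ± 0.34 at T48 (FDR 0.0948). The receptor Rpn13 is encoded by a pair of genes, rpn1301 and rpn1302, whose coding sequences are 42.8% identical and 0% of their 50-base windows recur elsewhere in the genome. From T0 to T48 their values lay on opposite sides of 0, with rpn1301 at 0.40 at T24 and −0.38 at T48, and rpn1302 at −0.11 at T24 and 0.37 at T48. At T2w both lay above 0 (0.09 and 0.31). Neither gene was called at any time, and the FDR at T24 and T48 was between 0.252 and 0.833. Exons on the opposite strand cover 100% of the exon bases of rpn1302, 0% of those of rpn1301 and 75.8% of those of rpn10. With strand use in counting unknown, reads of rpn1302 or rpn10 and of its partner could not be told apart.

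The lid had 10 members, with medians of 0.30, 0.35, 0.46, 0.45 and 0.07 over the 5 times. At T48, 3 of them were called higher (30%), a share like that of the smaller alpha ring (33.3%), against 5.57% of all genes. The gene rpn6, whose product in budding yeast bridges the lid and the core, was higher in leo1Δ at T48 (0.99 ± 0.35, 1.98-fold, FDR 0.0428). Its value was 0.09 at T24 and −0.53 at T2w, each within 2 SE of 0, so that the call rests on 1 time. The deposited exon length of rpn6 is 3046 bases against 1342 bases in the reference annotation used here, and what the added length holds was not tested. The PCI-domain genes rpn9 (0.67 ± 0.23, 1.59-fold, FDR 0.0304) and rpn12 (0.73 ± 0.25, 1.66-fold, FDR 0.0313) were also higher at T48. For rpn9 the values at T0, T8 and T24 were 0.50, 0.54 and 0.62, each with an unadjusted p below 0.05, and the value at T2w was −0.02. Exons on the opposite strand cover 73.8% of the exon bases of rpn9, 11.5% of those of rpn12 and 2.91% of those of rpn6.

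The remaining lid genes were not called. The gene rpn11, which encodes the enzyme that removes ubiquitin chains, had 0.54 ± 0.22 at T0 (unadjusted p 0.0132, FDR 0.372), the highest member value before starvation, and 0.48 at T24. Its partner rpn8 had −0.01, 0.38, 0.20, −0.33 and 0.05 over the 5 times. The genes rpn3 and rpn7 had their highest values at T24, 0.44 and 0.57 (FDR 0.195 and 0.113). The small subunit gene rpn15, annotated as Dss1, reached −0.43 ± 0.21 at T2w (unadjusted p 0.0404, FDR 0.287). Rpn5 is encoded by the near-identical copies rpn501 and rpn502, whose coding sequences differ at 2 of 1332 bases and which share 92.7% of their 50-base windows. Since reads from those windows cannot be assigned between them, their values (0.27 to 0.48 and 0.18 to 0.64, none called) are uncertain, as are their low levels.

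The order of members was more alike between T8 and T24 than between T24 and the later times. Whether it changed beyond the SE of single values was not tested. The Spearman correlation of the member values was 0.76 between T8 and T24 (0.73 over all genes), 0.25 between T24 and T48 (0.51 over all genes) and −0.12 between T24 and T2w (0.24 over all genes). These are correlations over 32 genes of the same libraries, which are not independent replicates. Of the members, 27 were above 0 at both T8 and T24 and 2 (rpt1 and rpn1302) were below 0 at both. Of all 32 members, 7 were above 0 at T24 and below 0 at T48, 1 of them (rpt2) by less than 0.01, and 6 of these 7 are among the 27 (rpt5 being the exception).

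The change between neighbouring times was tested for each gene from the deposited fold changes and their approximate SE, with Benjamini-Hochberg adjustment over all 5007 genes. This test was chosen after the values were seen, and it called 0 members in each step. Between T0 and T8 it called 0.0799% of all genes, and between T8 and T24 it called 0%, with 0 members at an unadjusted p below 0.05 in both. Between T24 and T48 it called 0% of all genes, and 3 members had an unadjusted p below 0.05, each with a lower value at T48: rpn1301 (−0.78), pup1 (−0.80) and rpt2 (−0.67), with a lowest adjusted p of 0.605. Between T48 and T2w it called 2.16% of all genes, and 4 members had an unadjusted p below 0.05, each with a lower value at T2w. The largest of these was rpn6, with −1.52 ± 0.50 (adjusted p 0.0712), and the others were rpn15 (−0.73), rpn12 (−0.72) and rpn9 (−0.69). For no member, therefore, did a called value at T24 or T48 pass a test against the same gene's value at a neighbouring time. The test took the 2 times as independent, and without values per library no pairing over times could be used. Its lowest unadjusted p over the members was 0.169 between T0 and T8 and 0.206 between T8 and T24. The test may thus be too strict, but members share libraries, so these values cannot settle that. The lack of calls does not show that the values were equal.

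The members were well expressed as a group. On the scale of mean log2 CPM over all libraries, their median was 7.34 against 6.13 for all genes, and 2 members, rpn501 and rpn502, fell in the lowest 25% of genes. Per kilobase of deposited exon length, the median level was 6.68 log2 CPM per kb against 5.21 for all genes, with the highest level at rpt3 (7.86) and the lowest at rpn501 (1.24). The core and regulatory particles had medians of 6.65 and 6.69 on that scale. Apart from rpn501, rpn502 and rpn6 (3.32), the members lay between 5.44 and 7.86. These levels are means over both genotypes and all times, so they say nothing of the difference between them.

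Base composition and level moved with the fold change at some times, over all genes as well as over members. The Spearman correlation of GC content with the log2 fold change was −0.49 over members and −0.43 over all genes at T0, −0.34 and −0.37 at T48, and 0.29 and 0.31 at T2w. The correlation with mean log2 CPM at T48 was −0.60 over members and −0.19 over all genes. Among all genes, the 20% with the highest mean expression had a median of −0.39 at T48 and 0.24 at T2w. The members' median GC content was 37.8%, against 37.2% for all genes. With each gene set against the median of its bin, in 5 equal bins of mean expression, the median of the members became 0.25, 0.23, 0.33, 0.41 and −0.07 over the 5 times. With bins of GC content it became 0.23, 0.30, 0.41, 0.48 and 0.0011. After either step the members' median was 0.23 or more from T0 to T48 and within 0.07 of 0 at T2w. The part of base composition and level in single values was not tested.

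Subunits that the name rule leaves out are pts1 (beta 5, which cuts after hydrophobic residues), pam1 (beta 6), scl1 (alpha 1) and SPCC18.17c, annotated as a non-ATPase regulatory subunit. At T48, pam1 (0.75, FDR 0.0164) and pts1 (0.72, FDR 0.0136) were higher in leo1Δ, and pam1 stood at 0.69 (FDR 0.0511) at T24. The calls at T48 are 50% of these 4 genes, against 5.57% of all genes called higher, and so short a list is only described. The values of scl1 and SPCC18.17c at T48 were −0.14 and −0.57, and neither was called at any time.

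Among 12 measured genes that assemble, regulate or serve the proteasome, 1 was called at T0 and 1 at T48. Of these, fub1, annotated as a protein with the PI31 proteasome inhibitor domain, was higher at T0 (1.14, FDR 0.00477) and ubp6, which trims ubiquitin at the regulatory particle, was higher at T48 (0.80, FDR 0.00394). A single gene is 8.33% of this list, against 0.16% of all genes called higher at T0 and 5.57% at T48, and a share resting on 1 gene is no more than a description. The list's medians were 0.11, 0.18, 0.23, 0.10 and 0.07 over the 5 times, all below those of the members. A further 3 genes whose product names the proteasome, fub2, pac3 and pac4, were found after the values were seen. Of these, fub2 was lower at T24 (−1.62, FDR 0.0329), where 3.77% of all genes were called lower. The polyubiquitin gene ubi4 had 0.99, 1.00 and 0.94 at T0, T8 and T24 without a call (FDR 0.204, 0.122 and 0.0722), and none of the 5 ubiquitin genes was called.

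Among 13 genes of ubiquitin activation and conjugation, ubc8 was higher at T48 (0.65, FDR 0.0378) and ubc7, which serves degradation at the endoplasmic reticulum in budding yeast, was lower at T48 (−0.997, FDR 0.00341). Of 18 ubiquitin ligase genes, pub3 alone was called, lower at T48 (−0.73, FDR 0.0499). Of 8 genes of the Cdc48 segregase, which extracts ubiquitinated proteins from complexes, none was called at any time. The Cdc48 medians were 0.17, 0.28, 0.33, 0.14 and 0.08 over the 5 times, beside 0.18, 0.30, 0.40, 0.32 and 0.11 for the proteasome members. They were thus close to those of the members except at T48. At T48 the conjugation list thus had 7.69% of its genes called in each direction and the ligases 5.56% called lower, where all genes had 5.57% called higher and 8.21% lower. The absence of calls seen for the Cdc48 genes was shared by the 6 genes of the COP9 signalosome, a complex built like the lid. The COP9 medians were 0.18, 0.13, 0.02, 0.01 and −0.20 over the 5 times. Autophagy, the other main route of degradation in starved cells, had 28 measured genes. Its medians were 0.22, 0.02, −0.03, 0.04 and −0.11 over the 5 times. At T0, 21 of its 28 genes lay above 0, so the values above 0 at T0 were not particular to the proteasome genes. At T48 it had 2 genes called higher (atg11, atg38) and 3 lower (atg1801, atg4, atg20). These are 7.14% and 10.7% of the list, near the shares over all genes.

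**Figure D3:**
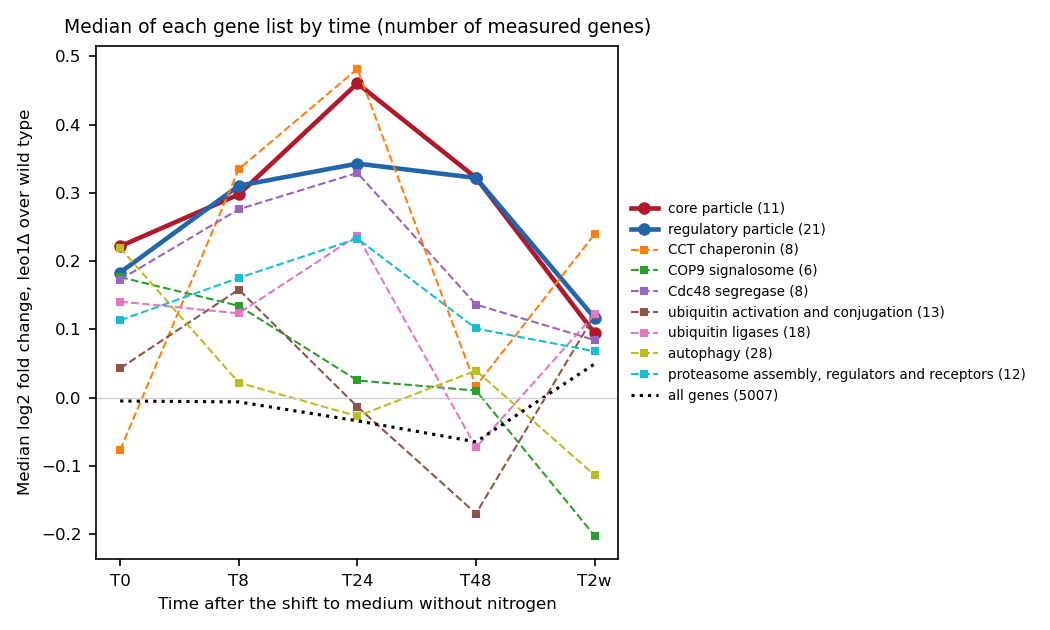
Median log2 fold change of leo1Δ over wild type (vertical axis) by time (horizontal axis) for the core and regulatory particle genes (solid lines), 7 other gene lists (dashed lines, with the number of measured genes) and all genes (dotted line). The proteasome lists lie above that of all genes at each time, and at T24 the 8 CCT chaperonin genes have the highest median (0.48).

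The CCT chaperonin, a ring complex that folds actin and tubulin, had medians of −0.08, 0.33, 0.48, 0.02 and 0.24 over the 5 times with none of its 8 genes called. At T8 and T24 all 8 lay above 0, so values like those of the proteasome genes were also found in another ring complex. Outside all lists, the genes whose course lay closest to the median course of the members (mean absolute difference over the 5 times) were edc3, at 0.03, mis13, grx5, SPCC24B10.02c and lip5. Within a difference of 0.1 there were 72 other genes and 1 member.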

How the data were processed

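RNA was depleted of rRNA, made into ScriptSeq libraries and sequenced from 1 end (50 cycles, Illumina HiSeq) by the authors, who aligned it with Bowtie2 at its defaults to ASM294v2 (annotation ASM294v2.24), counted genes with featureCounts, removed genes of very low expression and compared genotypes with edgeR. The sources used here do not give tool versions, strand use in counting, how featureCounts treated reads with several matches, or the level of the expression filter. The methods mention normalization to the number of reads and removal of identical reads without saying whether either applied to the gene counts. The deposited log2 fold changes of leo1Δ over wild type, the deposited likelihood ratio score, the deposited p-value and FDR, the deposited mean log2 CPM and the deposited exon length were used as they stand. These columns are the authors' own comparisons, and no library values were mapped, so no new fit per gene was made. The FDR equals a Benjamini-Hochberg adjustment of the p-values over all entries. Of 5008 entries, 1 named no gene, held 10.3% of all counts going by mean log2 CPM, and was left out.

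The approximate SE is the size of the log2 fold change divided by the square root of the likelihood ratio. The 95% interval is the log2 fold change with the normal quantile of that SE on either side. The p-values rest on 2 libraries a group. Between times, differences were tested with these SE, taken as independent, with a normal tail and adjustment over all genes. Both calculations were tested on simulated data, in which the times were drawn independently and the spread between libraries was known. Symbols, products, GC content, repeated windows and overlaps came from ASM294v3 for 4978 matched genes. Since this is not the authors' build, no coordinates or sequences are given. The members and lists were chosen with earlier results of these data known. All members could be named, and of related lists the called genes, the 4 of highest mean expression, leo1, and the 5 genes nearest to the median course. Lists were matched by symbol, 11 symbols had no measured gene, and 1 ligase symbol was dropped because its product is another one. Alternatives were other FDR thresholds, an expression filter, centring, other memberships and, added after the values were seen, leaving out overlapped members or rpn6. Scripts used Python 3.11.15, numpy 2.4.6, pandas 2.3.3, scipy 1.17.1, Biopython 1.88 and matplotlib 3.10.9.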

Additional observations from a re-analysis of the deposited data

How the results depend on the processing

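Of 70 alternative counts of called members, 65 stayed within 1.5 times the count given in the report. Most of these 65 were counts of 0 beside a count of 0 in the report, so they say little about the calls made. Every count that moved further was of members called higher at T24 or T48, the only counts above 0 in the report. The count of members called higher at T24 was 3, and it was 0 at an FDR threshold of 0.01, 6 at 0.1 and 1 (pup1) without the members that overlap exons on the opposite strand over most of their length. The count at T48 was 5, and it was 0 at a threshold of 0.01 and 2 (rpn6 and rpn12) without those overlapped members. Leaving out the overlapped members and leaving out rpn6 were chosen after seeing the data. The cause of these changes was not tested beyond the construction of the alternative. No alternative gave a member called lower. All 70 alternative medians of the core and regulatory particle genes stayed within 1 SD of the members, with shifts between −0.18 and 0.16. At T2w, 3 medians changed sign: the core particle's to −0.02 with centring by GC content and to −0.07 with centring by mean expression, and the regulatory particle's to −0.06 with centring by mean expression. No paired analysis was possible because the table holds 1 comparison per gene and time with no values per library. For the same reason the quasi-likelihood fit, the DESeq2 alternative, the low-count filter and leaving out a replicate were not run, and depth limits could not be set.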
